A study of Mus musculus with 22 samples.

Results

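miR-103-3p and miR-107-3p are 2 microRNAs that differ at a single base and share their seed, the stretch near the 5′ end through which a microRNA pairs with its target messages. They were found by their names, mmu-miR-103-3p and mmu-miR-107-3p, among the 1247 miRNAs on the arrays and in the authors' value table, so the description covers 2 of 1247 miRNAs on all 22 arrays. Primary hepatocytes of C57Bl6 mice had been treated with cyclosporin A (CsA), an immunosuppressant that inhibits calcineurin and is a known cause of impaired bile flow. The CsA groups were 50 µM for 48 h (n = 3), 10 µM for 48 h (n = 3), 50 µM for 24 h (n = 2) and 10 µM for 24 h (n = 3). The solvent groups received 0.5% DMSO for 48 h (n = 6) or 24 h (n = 5). Each array also belongs to a numbered experiment, 1, 2 or 3. At 48 h each experiment held a 10 µM and a 50 µM CsA array and DMSO arrays. Arrays pooled in a group therefore share experiments and need not be independent. The main tests treat them as independent, and a fit with the experiment as a block is given further below. The labels call the samples biological replicates but do not say whether they came from separate animals, so p-values measure only the spread between these samples. The treatment text of the labels speaks of HepG2 cells, a human liver tumour line, whereas all other fields name primary mouse hepatocytes. A cultured hepatocyte has no blood flow, bile duct or neighbouring tissue, which limits it as a model of liver.

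In mammals the 2 miRNAs are made from hairpins that lie within genes for pantothenate kinases, the enzymes that start coenzyme A synthesis. In mice, raised miR-103 and miR-107 in liver worsen insulin sensitivity and glucose balance, and their silencing improves them; caveolin-1, a membrane protein that stabilises the insulin receptor, is a known target. A miRNA lowers its targets by guiding the silencing complex to short matches of its seed, so miRNAs with the same seed can act on overlapping sets of messages.

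The mature sequences are shown because the pair differs so little that a hybridisation array has to separate them by the 3′ end. They are RefSeq sequences of the mouse build GRCm38.p6, written 5′ to 3′, with the seed (bases 2 to 8) in capitals.
miR-103-3p: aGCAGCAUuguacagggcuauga
miR-107-3p: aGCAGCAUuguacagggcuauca
miR-16-5p: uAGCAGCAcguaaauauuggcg
miR-15a-5p: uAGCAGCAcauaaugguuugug
The pair was identical at 22 of 23 bases. The exception was G22C, with miR-103-3p first and positions counted from 1 at the 5′ end. The seed of miR-16-5p and miR-15a-5p is that of the pair moved by 1 base, which is why this family was examined beside it. Among 1679 mature mouse miRNAs in the RefSeq table, the seed of the pair was held by 2, the pair itself. The first 6 bases of that seed stood 1 position later in 10 other mature miRNAs, of which 9 were on the array and 3 were tested: miR-15a-5p, miR-15b-5p and miR-16-5p.

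miR-103-3p comes from 2 hairpins and miR-107-3p from 1, and their sequences are given with the mature 3p arm in capitals because identical mature copies from 2 loci cannot be told apart on an array.
Mir103-1: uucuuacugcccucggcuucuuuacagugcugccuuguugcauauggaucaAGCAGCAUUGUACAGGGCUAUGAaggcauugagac
Mir103-2: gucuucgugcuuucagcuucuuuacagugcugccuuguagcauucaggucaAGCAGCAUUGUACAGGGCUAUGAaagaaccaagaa
Mir107: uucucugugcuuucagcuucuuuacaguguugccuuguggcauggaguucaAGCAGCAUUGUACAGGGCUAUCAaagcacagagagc
On GRCm38.p6, Mir103-1 lies at chr11:35782396-35782481 on the plus strand, within the span of Pank3. Mir103-2 lies at chr2:131288052-131288137 on the plus strand, within the span of Pank2. Mir107 lies at chr19:34820687-34820773 on the minus strand, within the span of Pank1. The annotation used here gives gene spans only, so exon or intron was not assigned.

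Both miRNAs were above background on every array. Each had 2 probes of 20 spots, and all 440 spots of each probe over the 22 arrays were well above background with 0 saturated. The brighter probe of miR-103-3p had a median signal of 179 intensity units, between 115 and 293 over the arrays. The brighter probe of miR-107-3p had a median of 193, between 158 and 361. Spots of the same brighter probe on an array varied with a median coefficient of variation of 7.78% for miR-103-3p and 5.83% for miR-107-3p. The scanner software put its own error at 7.60% to 9.72% of the total gene signal for miR-103-3p and 7.65% to 8.99% for miR-107-3p. miR-103-3p took 0.0573% to 0.189% of an array's total gene signal (median 0.125%), and miR-107-3p 0.0759% to 0.188% (median 0.133%). For scale, miR-122-5p, the most hepatocyte-typical miRNA, took 6.73% to 13.8%. The arms from the other side of the hairpins, miR-103-1-5p and miR-107-5p, were above background on 0 of 22 arrays, and miR-103-2-5p was not among the array's entries.

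The levels below are log2 values of the brighter probe's mean processed signal, divided by the array's own 75th percentile, taken over the 281 probes that exceeded background throughout. They were compared with limma over 290 miRNAs and adjusted with Benjamini-Hochberg, and a change was called at an adjusted p under 0.05. Each of 4 hepatocyte markers (miR-122-5p, miR-192-5p, miR-194-5p and miR-148a-3p) was above background on all arrays. None of 11 leukocyte, erythroid and other epithelial markers was above background on any array, and of 7 endothelial and stellate markers 2, miR-126-3p and miR-145a-5p, were above it on some. The summed scaled signal of the hepatocyte markers ran from 46.2 to 58.4 in CsA at 48 h and 44.3 to 56.2 in DMSO at 48 h. The summed endothelial markers ran from 0.125 to 0.192 and 0.101 to 0.203 in those groups, and the stellate markers from 0.236 to 0.296 and 0.236 to 0.313. These sums count every marker at no less than 0.0471, the lowest scaled value allowed. The 5 other epithelial markers, never above background, also summed to 0.236. The low end of the 5 stellate markers is therefore no measured signal. Between 201 and 400 miRNAs were detected per array, and 2.19% to 10.3% of spots were outliers. One array, 10 µM CsA at 24 h replicate 3, had a mean negative-control signal of 215, against 0.674 to 33.7 on the others. On that array the brighter probes read 172 for miR-103-3p and 192 for miR-107-3p, below this mean, although their spots were flagged well above background.

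The 2 deposited sources disagree on which array belongs to which dose. Each column of the authors' value table had the same rank order as exactly 1 array file (rank correlation 1, and at most 0.966 with any other array), but only 6 of 22 columns matched the file of their own sample. In the other 16, 8 CsA columns matched an array filed under the other dose, and 8 DMSO columns an array whose label carries the tag of the other dose. Time and agent were the same on both sides of each mismatch. Comparisons of CsA with DMSO over both doses are therefore the same under either naming and come first. Results for 1 dose are given under both, the names of the array files first, and the labels do not settle which is right.

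At 48 h mmu-miR-103-3p and mmu-miR-107-3p averaged lower in CsA than in DMSO, and neither difference passed the test. miR-103-3p had a lowest, median and highest level of -1.52, -0.88 and -0.69 in 6 CsA arrays, against -1.01, -0.58 and -0.46 in 6 DMSO arrays. The 3 lowest CsA arrays, at -1.52, -1.24 and -1.05, lay below every DMSO array, while the other 3 stood close together within the DMSO range. The means were -0.98 ± 0.35 in CsA and -0.63 ± 0.20 in DMSO (SD, n = 6 each). The difference was -0.36 ± 0.15 (SE), a 1.28-fold lower level, with a 95% interval of -0.66 to -0.050 and an adjusted p of 0.143 by limma. An exact two-sided permutation test over the arrays gave p = 0.0519, and 0.312 after adjustment over 6 such tests. Without DMSO replicate 5, the lowest DMSO array, the difference was -0.43 with an adjusted p of 0.0455 by limma, in a fit that called 58 of the 290 miRNAs (20%).

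miR-107-3p averaged lower in CsA by a smaller amount. It had -1.09, -0.79 and -0.39 as lowest, median and highest level in CsA, against -0.77, -0.63 and -0.36 in DMSO. The 3 lowest CsA arrays, at -1.09, -1.03 and -0.84, lay below all DMSO arrays and the other 3 among them. The means were -0.77 ± 0.27 in CsA and -0.59 ± 0.15 in DMSO (SD, n = 6 each). The difference was -0.18 ± 0.13 (SE), with a 95% interval of -0.46 to 0.089 and an adjusted p of 0.387 by limma (exact permutation p = 0.180, adjusted 0.539).

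Few miRNAs were called in this comparison: of 290 tested, 1 was called higher (0.345%) and 2 lower (0.69%), and the median difference over all of them was 0.097. Neither member was among the 3. At an unadjusted p under 0.05, 80 miRNAs (27.6%) passed, miR-103-3p among them at rank 49 by p.

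**Figure D1:**
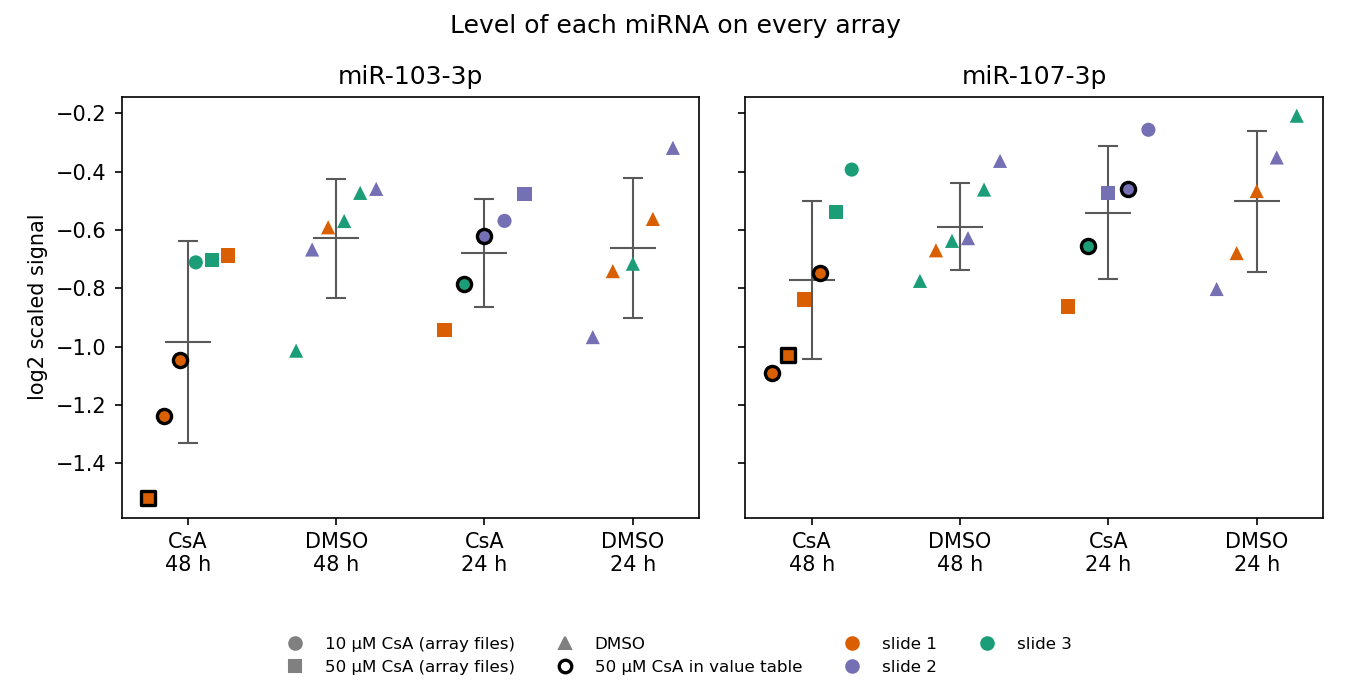
Levels of both miRNAs on each of the 22 arrays (y axis, log2 scaled signal) in CsA and DMSO at 48 h and at 24 h. Circles are 10 µM CsA, squares 50 µM CsA and triangles DMSO as the array files name them; a black outline marks arrays that the value table names 50 µM CsA, colours are slides, and bars give the mean and SD. The 3 lowest miR-103-3p levels of 48 h CsA, -1.52 to -1.05, are all on slide 1 and all outlined.

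The slides moved with the groups at 48 h. Slide 1 held 4 of the 6 CsA arrays and 1 of the 6 DMSO arrays, slide 2 held 0 CsA and 2 DMSO arrays, and slide 3 held 2 CsA and 3 DMSO arrays. Within slide 1 the difference between CsA and DMSO was -0.53 for miR-103-3p and -0.26 for miR-107-3p. Within slide 3 it was -0.022 for miR-103-3p and 0.16 for miR-107-3p. With slide as a block the differences were -0.25 (adjusted p = 0.472 by limma) and -0.045 (adjusted p = 0.925). Outlier spots made up 3.94% to 10.3% in CsA and 3.12% to 8.40% in DMSO at 48 h, and the arrays over 8% were all on slide 1, 3 of 6 in CsA and 1 of 6 in DMSO. Of the 3 CsA arrays with the lowest miR-103-3p, the one at -1.05 was also the brightest of the series, with 400 miRNAs detected and a 75th percentile of 605 intensity units, against 201 to 334 miRNAs and 188 to 373 units on the other arrays. Without it the 48 h differences were -0.34 (adjusted p = 0.321 by limma) and -0.19 (adjusted p = 0.516). The part of slide and array quality in the 48 h differences was not tested beyond these values.

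At 24 h the levels of CsA and DMSO arrays overlapped over their whole range. miR-103-3p stood at -0.94, -0.79, -0.62, -0.57 and -0.48 in 5 CsA arrays, against -0.97, -0.74, -0.72, -0.56 and -0.32 in 5 DMSO arrays. The lowest and the highest of these 10 values were both DMSO arrays. The difference was -0.019 ± 0.16 (SE), with a 95% interval of -0.35 to 0.32 and an adjusted p of 1 by limma. miR-107-3p stood at -0.86, -0.65, -0.47, -0.46 and -0.26 in CsA, against -0.80, -0.68, -0.47, -0.35 and -0.21 in DMSO. Its difference was -0.040 ± 0.14 (SE), with a 95% interval of -0.34 to 0.26 and an adjusted p of 1. At 24 h limma called 0 of 290 miRNAs higher and 0 lower (0%), and 18 (6.21%) passed at an unadjusted p under 0.05. Without the array of high negative controls the differences were -0.033 and -0.060. Within slides 1, 2 and 3 they were -0.29, 0.087 and -0.070 for miR-103-3p and -0.29, 0.18 and -0.45 for miR-107-3p.

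No difference with time in the solvent arrays passed the test. In DMSO, miR-103-3p averaged -0.63 ± 0.20 at 48 h and -0.66 ± 0.24 at 24 h (SD, n = 6 and 5), a difference of 0.032 ± 0.15 (SE, adjusted p = 0.997 by limma). miR-107-3p averaged -0.59 ± 0.15 at 48 h and -0.50 ± 0.24 at 24 h, a difference of -0.087 ± 0.14 (SE, adjusted p = 0.949). Of 290 miRNAs, limma called 0 higher and 0 lower (0%) in this comparison, with 38 (13.1%) at an unadjusted p under 0.05. In CsA, 48 h against 24 h gave -0.30 ± 0.15 for miR-103-3p (SE, adjusted p = 0.305) and -0.23 ± 0.14 for miR-107-3p (adjusted p = 0.356), with 1 of 290 miRNAs called lower (0.345%), 0 higher (0%) and 50 (17.2%) at an unadjusted p under 0.05. Within slides 1 and 3 these CsA differences were -0.18 and 0.078 for miR-103-3p, and -0.063 and 0.19 for miR-107-3p. The CsA difference at 48 h minus that at 24 h was -0.34 ± 0.22 for miR-103-3p and -0.14 ± 0.19 for miR-107-3p (SE), each with an adjusted p of 0.798, so a difference between the times was not shown.

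From the highest to the lowest mean, miR-103-3p stood in the order DMSO at 48 h, DMSO at 24 h, CsA at 24 h and CsA at 48 h. The first 3 of these means differed from one another by less than any of their SDs. For miR-107-3p the order was DMSO at 24 h, CsA at 24 h, DMSO at 48 h and CsA at 48 h. CsA at 48 h was the lowest group for both, and the ranges of all neighbouring groups overlapped.

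By dose, the names of the array files gave similar differences at 10 and 50 µM. miR-103-3p at 48 h had -1.52, -0.70 and -0.69 in 50 µM arrays and -1.24, -1.05 and -0.71 in 10 µM arrays. The difference from DMSO was -0.34 ± 0.19 at 50 µM (SE, adjusted p = 0.568 by limma) and -0.37 ± 0.19 at 10 µM (adjusted p = 0.239). miR-107-3p had -1.03, -0.84 and -0.54 in 50 µM arrays and -1.09, -0.75 and -0.39 in 10 µM arrays. Its difference from DMSO was -0.21 ± 0.16 at 50 µM (adjusted p = 0.719) and -0.15 ± 0.16 at 10 µM (adjusted p = 0.653). The direct comparison of 50 µM with 10 µM gave 0.027 for miR-103-3p (95% interval -0.43 to 0.49) and -0.059 for miR-107-3p (-0.46 to 0.34), which does not show that the doses act alike. In these comparisons limma called 0 miRNAs higher (0%) and 1 lower (0.345%) at 50 µM, with 18 (6.21%) at an unadjusted p under 0.05, and 17 higher (5.86%) and 2 lower (0.69%) at 10 µM.

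Under the value table's names the 3 lowest 48 h arrays of miR-103-3p form the 50 µM group. miR-103-3p then had -1.52, -1.24 and -1.05 in 50 µM CsA, against -1.01 to -0.46 in DMSO, and no level overlapped. The means were -1.27 ± 0.24 in 50 µM CsA (SD, n = 3) and -0.63 ± 0.20 in DMSO (SD, n = 6). The difference was -0.64 ± 0.15 (SE), a 1.56-fold lower level, with a 95% interval of -0.95 to -0.33 and an adjusted p of 0.00217 by limma. With slide as a block it was -0.60 (adjusted p = 0.0165), and within slide 1, which held these 3 arrays and 1 DMSO array of 48 h, it was -0.68 (adjusted p = 0.138). Under this naming 30 of 290 miRNAs were called lower (10.3%) and 80 higher (27.6%), and 29 (10%) lay wholly below DMSO.

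miR-107-3p did not pass under the same names. It had -1.09, -1.03 and -0.75 in 50 µM CsA, against -0.77 to -0.36 in DMSO, with the highest CsA array inside the DMSO range. Its difference was -0.37 ± 0.15 (SE), with a 95% interval of -0.68 to -0.051 and an adjusted p of 0.0623 by limma, and -0.17 (adjusted p = 0.482) with slide as a block. Without the array that the value table names DMSO replicate 6 it was -0.40 (adjusted p = 0.0331), in a fit that called 173 of the 290 miRNAs (59.7%). That array is the one filed as DMSO replicate 5 at 48 h. At 10 µM under these names neither was called, with differences from DMSO of -0.072 ± 0.15 for miR-103-3p and -0.0013 ± 0.15 for miR-107-3p (SE, adjusted p = 1 for each). The comparison of 50 µM with 10 µM at 48 h gave -0.57 ± 0.17 for miR-103-3p (adjusted p = 0.0186) and -0.36 ± 0.17 for miR-107-3p (adjusted p = 0.119), with 22 miRNAs called lower (7.59%) and 62 higher (21.4%). Without 1 of 3 arrays the miR-103-3p comparison of the doses no longer passed (adjusted p = 0.057, 0.054 and 0.086 without 10 µM replicate 1, 10 µM replicate 2 or 50 µM replicate 1).

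**Figure D2:**
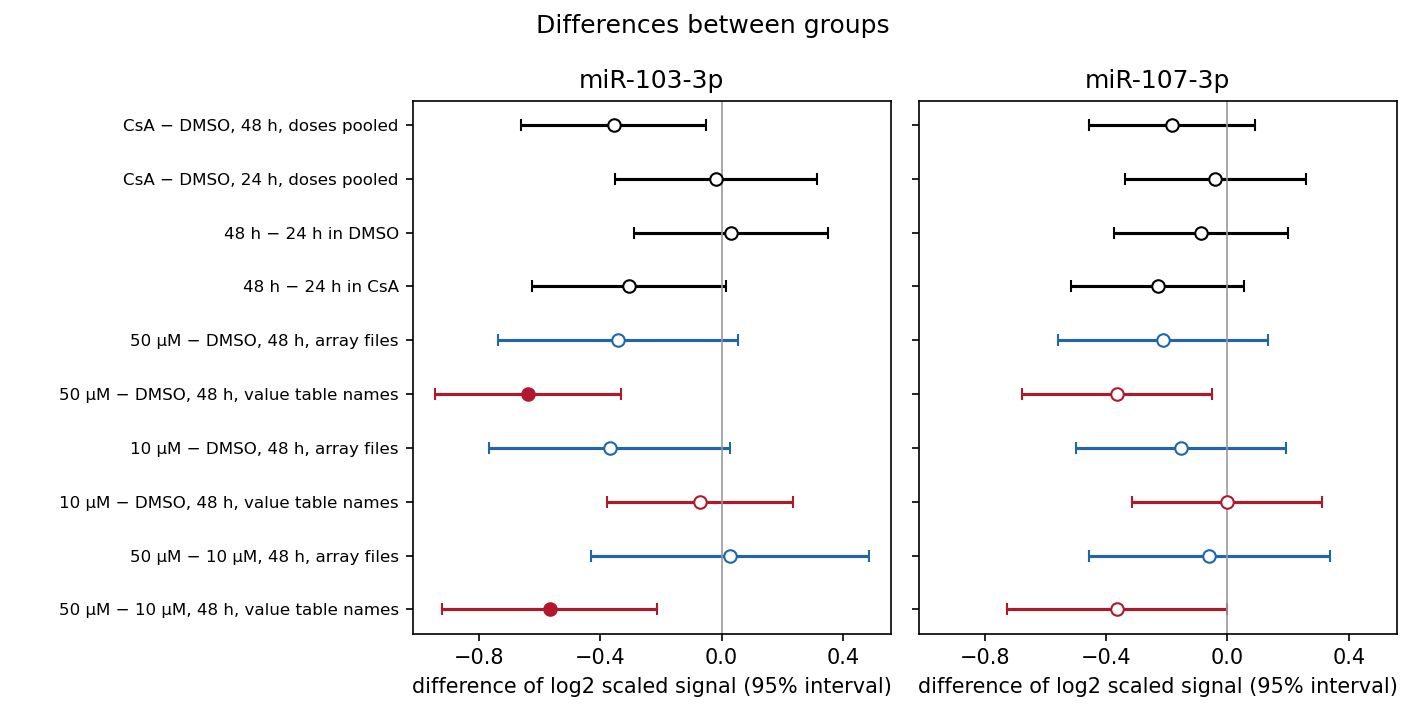
Differences of log2 scaled signal for both miRNAs (x axis) with 95% limma intervals, one comparison per line. Black lines do not depend on the naming, blue lines use the names of the array files and red lines those of the value table; filled points have an adjusted p under 0.05. The filled points are miR-103-3p under the value table's names at 48 h, -0.64 for 50 µM against DMSO and -0.57 for 50 µM against 10 µM.

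At 24 h neither naming gave a called dose difference. Under the array files' names the difference from DMSO was -0.050 at 50 µM and 0.0024 at 10 µM for miR-103-3p, and -0.17 and 0.045 for miR-107-3p. Under the value table's names these were -0.042 and -0.0026 for miR-103-3p and -0.056 and -0.029 for miR-107-3p. The adjusted p of these 8 values was 0.973 or more by limma.

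The authors' own normalized log2 values, read under the value table's names, called both miRNAs at 50 µM and 48 h. miR-103-3p was at 5.68, 5.78 and 5.87 in 50 µM CsA, and in DMSO its lowest, median and highest values were 6.06, 6.80 and 6.88. The difference was -0.91 ± 0.19 (SE, adjusted p = 0.00147 by limma). miR-107-3p was at 5.87, 6.02 and 6.26 in 50 µM CsA, and at 6.26, 6.75 and 6.88 in DMSO, so the groups met at 1 value. Its difference was -0.64 ± 0.16 (SE, adjusted p = 0.00614). Among the authors' values, 62 of 290 miRNAs were called lower (21.4%) and 42 higher (14.5%). Under the array files' names the same values gave -0.32 for miR-103-3p (adjusted p = 0.608) and -0.27 for miR-107-3p (adjusted p = 0.595) at 50 µM and 48 h, so neither was called, and 12 of 290 miRNAs (4.14%) were. At 10 µM and 48 h under the value table's names the differences from DMSO were 0.0015 for miR-103-3p and -0.010 for miR-107-3p (adjusted p = 1 for each). Every column of the table had a median of -1, which is also its minimum, so the medians do not tell how the columns were centred. Identical values recurred across columns, such as 6.63914 for miR-103-3p in 10 µM CsA at 48 h and in DMSO at 24 h. Quantile normalization gives columns such shared values. The value at which the miR-107-3p groups met, 6.26147 in both, is also a shared value. Whether the authors used quantile normalization is not stated and was not tested.

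**Figure D3:**
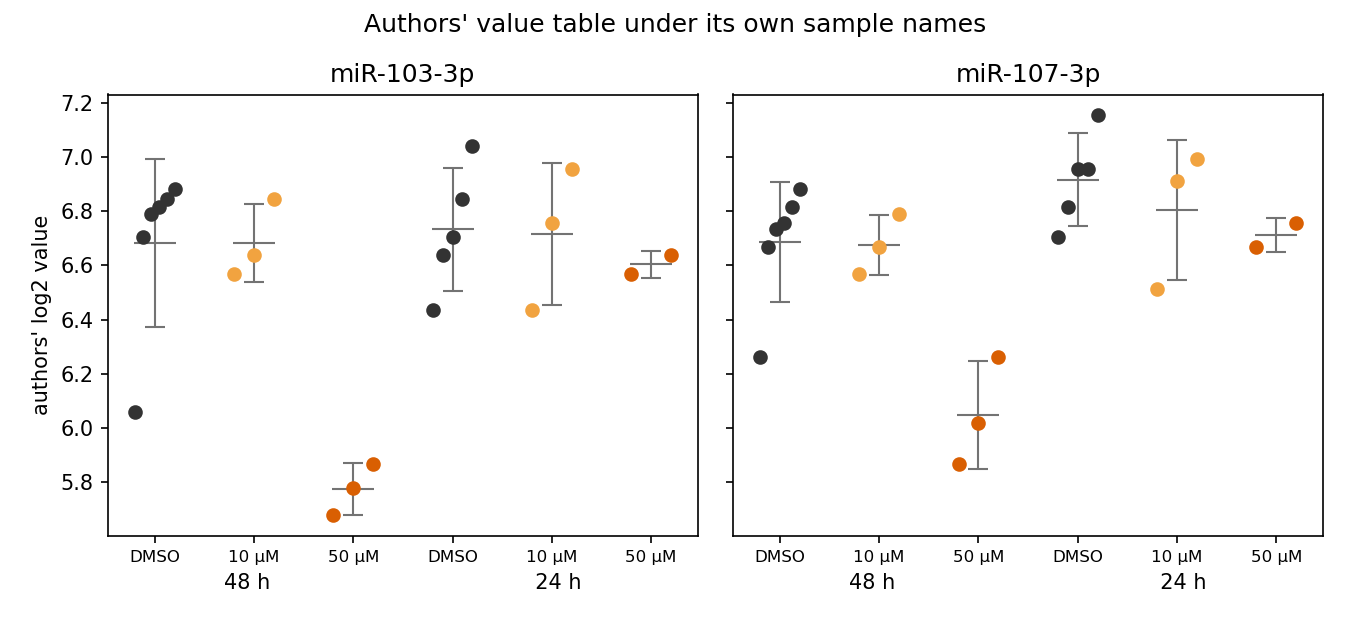
The authors' normalized log2 values (y axis) of both miRNAs by dose at 48 h and 24 h under the value table's own sample names, with 1 point per sample and bars for the mean and SD. The 3 samples of 50 µM CsA at 48 h have the lowest miR-103-3p values, 5.68 to 5.87, and the lowest DMSO sample of 48 h stands apart at 6.06.

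The 2 miRNAs were also compared with each other, by taking the change of miR-103-3p minus that of miR-107-3p on the same arrays. Probe sequences were not at hand, so how far the probes of one miRNA also bind the other could not be checked. The comparisons of the pair here and below are therefore between probe readings. At 48 h the CsA change of miR-103-3p was 0.17 lower than that of miR-107-3p (-0.17, exact two-sided permutation p = 0.136, adjusted p = 0.409 over 3 tests, n = 6 each). Without 50 µM replicate 2 it was -0.24 (unadjusted exact p = 0.0216). At 24 h the value was 0.021 (exact p = 0.849, n = 5 each), and for time in DMSO it was 0.12 (exact p = 0.333, n = 6 and 5). Under the value table's names, 50 µM CsA against DMSO at 48 h gave -0.27 (exact permutation p = 0.0476, n = 3 and 6), a comparison added after the data were seen. Over both doses, a difference between the members' changes was therefore not shown.

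The second probe of each miRNA gave a difference of the same sign. For miR-103-3p the pooled 48 h difference between CsA and DMSO was -0.36 on the brighter and -0.35 on the dimmer probe, and for miR-107-3p it was -0.18 and -0.23. The probes of 1 miRNA followed each other over the 22 arrays with Pearson's r of 0.984 for miR-103-3p and 0.963 for miR-107-3p. The 2 miRNAs followed each other less closely, with r = 0.779 (permutation p = 2e-05, adjusted 2e-05 over 3 pairs) and Spearman's rho = 0.703 (permutation p = 0.00036). Without the 2 arrays farthest from the median of miR-103-3p, r was 0.638, and after removal of the 6 group means it was 0.752. Within slides 1, 2 and 3 it was 0.832, 0.823 and 0.341, over 8, 7 and 7 arrays.

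**Figure D4:**
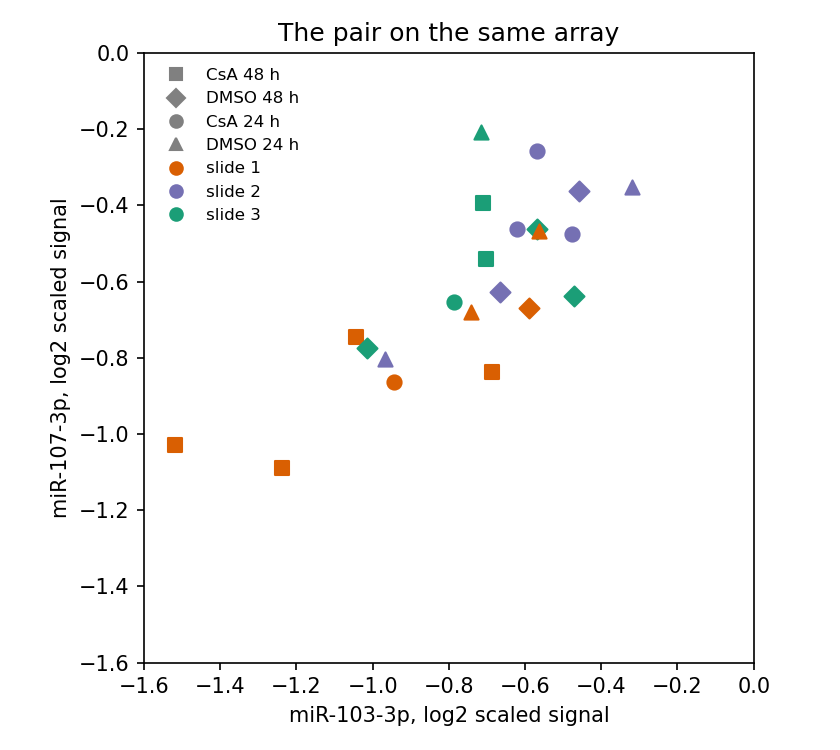
miR-107-3p against miR-103-3p on the same array (log2 scaled signal of each, 22 arrays). Symbols give agent and time and colours the slide; r is 0.779, and the 2 arrays at the lower left are 48 h CsA arrays of slide 1, at -1.52 and -1.24 for miR-103-3p.

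Among the 154 other miRNAs above background on all arrays, several resembled a member more than its near-identical partner did. By Pearson's r over the 22 arrays, miR-103-3p was most like let-7g-5p (0.847), miR-22-3p (0.821), miR-26a-5p (0.814), miR-185-5p (0.814) and let-7c-5p (0.805), and miR-107-3p had rank 10 for it. miR-107-3p was most like miR-29a-3p (0.891), miR-192-5p (0.881), miR-30a-5p (0.865), let-7g-5p (0.862) and miR-378d (0.839), and miR-103-3p had rank 14 for it. let-7g-5p stood in both sets. The deviations from the group means gave r between 0.735 and 0.894 for these 10 pairs. The median r over the 154 others was -0.26 for miR-103-3p and -0.17 for miR-107-3p; arrays share scaling and slide, so these values are descriptive.

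The miR-15/16 family, with the shifted seed, showed no called change where the naming does not matter. Of 11 entries listed for this family on the array, 4 were tested: miR-15a-5p, miR-15b-5p, miR-16-5p and miR-1907. The RefSeq table had no entry for miR-1907, so its seed was not checked here. At 48 h 0 of 4 were called, beside 0.345% called higher and 0.69% lower over all 290. With so few calls over all miRNAs, 0 of 4 does not set the family apart. The median difference of the 4 between CsA and DMSO was 0.023, beside 0.097 over all 290. miR-16-5p, an abundant regulator of cell cycle messages, averaged -0.33 ± 0.22 in CsA and -0.35 ± 0.25 in DMSO at 48 h (SD, n = 6 each). miR-15a-5p averaged -1.33 ± 0.31 in CsA and -1.36 ± 0.37 in DMSO. miR-15b-5p averaged -1.88 ± 0.38 in CsA and -1.48 ± 0.46 in DMSO (adjusted p = 0.292 by limma), the value nearest to that of miR-103-3p. miR-1907, close to the floor of -4.41, averaged -3.96 ± 0.39 in CsA and -4.30 ± 0.28 in DMSO. At 24 h and for time in DMSO 0 of 4 were called as well, beside 0% over all 290. Under the value table's names, 50 µM CsA at 48 h had 1 of the 4 called, miR-1907, which was 0.61 ± 0.15 higher (SE, adjusted p = 0.00372 by limma), beside 27.6% called higher over all 290.

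A wider list of miRNAs linked to insulin signalling and glucose metabolism held 26 entries on the array, of which 20 were tested. At 48 h, 0 of 20 were called higher and 1 lower in CsA than in DMSO, beside 0.345% higher and 0.69% lower over all 290. Of the 20, 13 had negative differences. The median of the 20 was -0.14, beside 0.097 over all 290, of which 36.2% were negative. The called one was miR-130a-3p, a miRNA studied in hepatic insulin sensitivity, at -0.94 ± 0.32 in CsA and -0.18 ± 0.31 in DMSO (SD, n = 6 each), a difference of -0.76 ± 0.17 (SE, adjusted p = 0.0307 by limma). Of the 4 most abundant others, miR-122-5p differed by 0.068 ± 0.084, miR-21a-5p by -0.30 ± 0.19, let-7f-5p by -0.096 ± 0.19 and let-7a-5p by -0.16 ± 0.17 (SE), with adjusted p between 0.329 and 0.790. At 24 h 0 of 20 were called and the median was 0.036, and for time in DMSO 0 of 20 were called and it was -0.030. Over all 290, 0% were called in either of these comparisons.

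Under the value table's names, 50 µM CsA at 48 h had 1 of the 20 called higher and 5 lower, against 27.6% higher and 10.3% lower over all 290. Their median was -0.30, beside 0.13 over all 290. Their names were read after the counts were seen. The 5 lower ones were miR-130a-3p at -0.99 ± 0.19, miR-27b-3p at -0.97 ± 0.17, miR-21a-5p at -0.69 ± 0.17, miR-152-3p at -0.61 ± 0.18 and miR-26a-5p at -0.57 ± 0.16 (differences ± SE). The higher one was miR-155-5p, best known from immune cells, at 0.73 ± 0.17, with levels of -3.46 ± 0.10 in 50 µM CsA and -4.19 ± 0.22 in DMSO, both near the floor. The difference of miR-103-3p in the same comparison, -0.64, lay between those of miR-21a-5p and miR-152-3p. Under the array files' names, 0 of 20 were called at 50 µM and 1 of 20, lower, at 10 µM. Over all 290 these names gave 0% higher and 0.345% lower at 50 µM, and 5.86% higher and 0.69% lower at 10 µM.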

How the data were processed

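Total RNA was hybridised to single-colour Agilent mouse miRNA arrays; 22 are used here, and the design text speaks of 24. The deposited processed signal is a spot intensity corrected for background by Feature Extraction 10.7.3.1, as the file headers record. The authors' value table holds log2 values normalized between arrays, and the submitters' processing notes name R 2.15.2 as the tool; the method and the centring are not stated there. From the spot files, non-control spots not marked as outliers were averaged per probe, then scaled to a 75th percentile of each array (188 to 605) that was read from the 281 probes exceeding background throughout. Values were raised to at least 0.0471 before taking log2. A probe counted as above background where at least 0.5 of its spots were. The brightest probe stood for a miRNA, and 290 miRNAs above background on at least 3 arrays were tested with limma 3.58.1 in R 4.3.3, with Benjamini-Hochberg adjustment over all 290. The fit was tested on simulated data. Exact permutation tests used scipy 1.17.1. Samples were grouped by the labels of the array files; the value table's names are an alternative, listed because an earlier account of these data reported the mismatch, and the settings tried under them were added after the files were seen. Named were both members, their passenger arms, for each member the 5 most alike miRNAs, list members that passed in a comparison over both doses with up to 4 of the highest level per list, and miR-122-5p. The members and the lists were chosen with earlier results of these data known, so no count over them is independent support. The number of arrays limits the precision. Sequences were read from RefSeq tables, which matched both members.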

Additional observations from a re-analysis of the deposited data

Results flagged for a closer look

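Of 20 tests for a sample far from the rest of its group, 3 stood out, all of them the same array, so they are not independent; chance gives about 1 in 20. In DMSO at 48 h, replicate 5 had the lowest miR-103-3p level, -1.01, and its gap to the next array was 0.625 of the group's range, just past the critical value of 0.625. Without it the pooled 48 h difference between CsA and DMSO was -0.43 with an adjusted p of 0.0455 by limma, in a fit that called 58 of 290 miRNAs (20%), against 3 with the array. In the authors' value table this array is named replicate 6 of DMSO at 48 h, and it was lowest there for both members, at 6.06 for miR-103-3p (gap 0.785 of the range) and 6.26 for miR-107-3p (gap 0.658). These levels are in the plots of levels by array and of the authors' values, and their cause was not tested.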

How the results depend on the processing

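The pooled 48 h difference of miR-103-3p between CsA and DMSO kept its sign under all 25 alternatives, from -0.78 to -0.022, and was called under 1 of them, the one without DMSO replicate 5. Over all miRNAs tested that comparison had 3 calls, and 0 to 58 under the alternatives. By the same count 48 h against 24 h in DMSO had 0, and 0 to 10. The count for 10 µM against DMSO at 48 h was 19, and 0 to 86. For 50 µM against DMSO at 48 h it was 1, and 0 to 110. That 110 came from taking the value table's names for the samples, and the authors' value table gave 104. The top of this range therefore compares different arrays with DMSO, and not only a different processing. Under the value table's names the main values gave the same 110, and the alternatives 47 to 173. Without the filter on dim miRNAs 341 were tested, since the other 906 lay at the floor on every array. The lowest pooled 48 h difference came with the 75th percentile over all probes (-0.78 for miR-103-3p and -0.61 for miR-107-3p, adjusted p = 0.0945 and 0.108), which moved the median of all miRNAs to -0.16 from 0.097. That scaling gave -0.94 for miR-107-3p at 50 µM and 48 h under the value table's names (adjusted p = 0.00853, called) and -0.87 for miR-103-3p, 50 µM against 10 µM under those names (adjusted p = 0.0562), and turned uncalled values to 0.013, -0.062, -0.020, 0.12 and 0.076. Under the value table's names miR-107-3p at 50 µM and 48 h was called with quantile normalization (-0.49), normexp and quantile normalization (-0.36), the compared groups only (-0.37) and the replicate block as well, in fits that called 31% to 53.4% of all miRNAs; 50 µM against 10 µM was called for it with quantile normalization (-0.55) and normexp (-0.40), and that of miR-103-3p was lost within slide 1 (-0.58), as was its 50 µM difference within slide 1 (-0.68).

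The experiment number was used as a replicate block. Deviations of same-numbered samples had a mean correlation of 0.141 over 66 pairs (-0.752 to 0.861). Samples of other numbers had -0.076 over 130 pairs (-0.839 to 0.830). The mean was higher within a number but the ranges largely overlapped, so these values neither establish nor exclude a pairing. Adding the block raised the calls for CsA against DMSO at 48 h over both doses from 3 to 25 of 290 miRNAs. With the block the pooled 48 h values were -0.36 and -0.18 (adjusted p = 0.119 and 0.299 by limma), and only miR-107-3p at 50 µM and 48 h under the value table's names changed its call (-0.37, adjusted p = 0.0316).

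Other changes of sign concerned values uncalled in the main fit, not all of them near 0, and the cause was not tested. For miR-103-3p, 48 h against 24 h in CsA went from -0.30 to 0.078 at its highest alternative. Its difference from DMSO at 10 µM and 48 h went from -0.37 to 0.0015, in the authors' value table under its own names. Replicates 2 and 3 of 10 µM in that table are arrays filed as 50 µM. The 2 values therefore compare different arrays with DMSO, and not only a different processing. The CsA difference at 48 h minus that at 24 h went from -0.34 to 0.048 for miR-103-3p. For miR-107-3p it went from -0.14 to 0.60. The values after a change of sign follow by setting, and those without a named comparison belong to comparisons by dose. For miR-103-3p over time in DMSO, quantile normalization gave -0.054 and normexp -0.034. Quantile normalization also gave -0.040, 0.054 and 0.0085, and normexp -0.024, 0.042 and 0.0072. The value table gave -0.051 for miR-103-3p over time in DMSO, and 0.0015 for miR-103-3p at 10 µM and 48 h. At 10 µM and 24 h it gave -0.017 for miR-103-3p and -0.11 for miR-107-3p. Called were, at 48 h, -0.91 and -0.64 for 50 µM against DMSO and -0.91 and -0.63 for 50 µM against 10 µM in the value table. Under the files' names the value table gave -0.078, -0.14, 0.11 and 0.041. The value table's names on the main values gave -0.64 and -0.57, called, and -0.0026 and -0.029. DMSO arrays of the same dose tag gave 0.14, 0.072, -0.13 and -0.11. Slide as a block gave 0.050 for the miR-107-3p CsA difference at 48 h minus that at 24 h, and -0.080, -0.062 and 0.039. Within slide 1 that miR-107-3p value was 0.034. Within slide 2, CsA against DMSO at 24 h gave 0.087 for miR-103-3p and 0.18 for miR-107-3p. Time in DMSO gave 0.081 for miR-107-3p there, and 0.16, 0.10 and 0.12 followed. Within slide 3, CsA against DMSO at 48 h gave 0.16 for miR-107-3p. For miR-103-3p and miR-107-3p, time in CsA gave 0.078 and 0.19 there, and the CsA difference between the times 0.048 and 0.60. The others within slide 3 were 0.085, 0.23, -0.070 and -0.45.

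Leaving out 1 sample at a time gave, for miR-103-3p and miR-107-3p, -0.43 to -0.25 and -0.26 to -0.12 for CsA against DMSO, 48 h, -0.10 to 0.067 and -0.12 to 0.040 for CsA against DMSO, 24 h, and -0.044 to 0.12 and -0.16 to -0.014 for 48 h against 24 h in DMSO. They were -0.37 to -0.20 and -0.31 to -0.16 for 48 h against 24 h in CsA, -0.42 to -0.23 and -0.22 to -0.068 for CsA effect at 48 h minus CsA effect at 24 h, and -0.48 to -0.067 and -0.34 to -0.10 for 50 µM CsA against DMSO, 48 h. They were -0.75 to -0.51 and -0.47 to -0.30 for 50 µM CsA against DMSO, 48 h, value table's names, -0.51 to -0.25 and -0.33 to 0.020 for 10 µM CsA against DMSO, 48 h, and -0.28 to 0.18 and -0.36 to 0.027 for 50 µM CsA against DMSO, 24 h. They were -0.074 to 0.088 and -0.056 to 0.14 for 10 µM CsA against DMSO, 24 h, -0.11 to 0.30 and -0.23 to 0.12 for 50 µM against 10 µM CsA, 48 h, and -0.68 to -0.44 and -0.49 to -0.27 for 50 µM against 10 µM CsA, 48 h, value table's names. They were -0.29 to 0.18 and -0.41 to -0.017 for 50 µM against 10 µM CsA, 24 h. For the change of miR-103-3p minus that of miR-107-3p they were -0.24 to -0.12 for CsA at 48 h, -0.066 to 0.070 at 24 h and 0.033 to 0.17 for time in DMSO; without 50 µM replicate 2 the first had an unadjusted exact p of 0.0216.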
